A study of Bos taurus with 17 samples.

Results

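The genes described here belong to the insulin-like growth factor (IGF) system, and were selected by symbol. They comprise the ligands IGF1 and IGF2, the receptors IGF1R, IGF2R and INSR, the adaptor IRS1 and the binding proteins IGFBP2, IGFBP3, IGFBP4 and IGFBP7. Of these 10 genes, 9 had a row among the 17167 genes of the deposited table. IGF1 was not analysed here. RNA came from pools of 10 bovine morulae produced in vitro, with 9 control pools and 8 pools that had received recombinant WNT5A, a secreted ligand of the WNT family. The comparison asked what WNT5A did to the transcriptome of the morula. The labels give no dose, exposure time, breed or embryo sex, and the samples are numbered here as in the labels. Nothing in the labels ties pools to separate rounds of fertilisation, and p-values therefore measure only the spread between pools.

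IGF1 and IGF2 are small secreted growth factors that act mainly through the tyrosine kinase receptor IGF1R, which signals through insulin receptor substrates to PI3K, AKT and mTOR and to the MAP kinases. IGF2R, which is also the cation-independent mannose 6-phosphate receptor, has no kinase and takes IGF2 to the lysosome, and INSR, the insulin receptor, forms hybrids with IGF1R. Binding proteins of the IGFBP family hold IGFs in the extracellular fluid and can lower or prolong their action. In cattle, embryos in culture respond to added IGF1, and the oviduct and uterus are known as sources of IGFs.

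Levels are RPKM (reads scaled to exon length and to library size by the authors) and can therefore be compared between genes. The reads behind them were recovered from the table, at 125 to 162 M per control library and 34.0 to 200.1 M per WNT5A library. WNT5A libraries 4, 12 and 14 held 34.0 to 52.4 M reads and the other 5 held 140 to 200.1 M. Control libraries 2, 3 and 6 had reads on 10055 to 11268 genes and the other 6 on 13587 to 15430. WNT5A libraries 4, 12 and 14 had reads on 13129 to 14038 genes and the other 5 on 14672 to 16589. For IGFBP2, IGFBP4 and some other genes, changes are also given without WNT5A libraries 4, 12 and 14 or control libraries 2, 3 and 6. All 8 embryo markers (POU5F1, NANOG, CDX2, GATA6, GATA3, KRT8, KRT18 and CDH1) had a row, and all but NANOG, which had reads in 8 of 9 controls, had reads in every library. Their summed level was 3229 to 4696 RPKM in controls, 3904 to 6631 in the 5 deeper WNT5A pools and 3335 to 3729 in WNT5A libraries 4, 12 and 14. POU5F1, a pluripotency factor and the most abundant of them, averaged 1193 RPKM in the latter 3 against 2014 in the former 5. GATA6 and KRT8 also had lower means in the latter 3, whereas NANOG, CDX2, GATA3, KRT18 and CDH1 had higher means there. In pooled embryos, fewer cells expressing a gene and less of its RNA in each cell cannot be told apart.

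IGFBP2 was the most abundant of the 9 genes and averaged 499 RPKM with WNT5A against 171 in controls, with 3 of the 8 treated pools above all other libraries. Values of both groups overlapped for each of the 9 genes, IGFBP2 included, and IGF2 had at most 177 reads in any library. IGFBP2 averaged 325 RPKM over the 17 libraries, IGFBP3 23.9, IGF2R 7.77, IGF1R 2.97, IGFBP4 1.46, IRS1 1.39, INSR 0.510, IGFBP7 0.452 and IGF2 0.0369. IGFBP2 exceeded IGFBP3 in 17 of 17 libraries, and IGFBP3 exceeded IGF2R in 17 of 17, without overlap of their ranges. IGF2R exceeded IGF1R within each of the 17 libraries, although their ranges over all libraries overlapped. IGF1R exceeded IGFBP4 in 10 libraries, IGFBP4 exceeded IRS1 in 8, and INSR exceeded IGFBP7 in 5, so these neighbours in the order do not differ beyond their spread. IRS1 was above INSR in 12 of 17 libraries and IGFBP7 above IGF2 in 8, with 6 ties, and the ranges of both pairs overlapped.

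**Figure D1:**
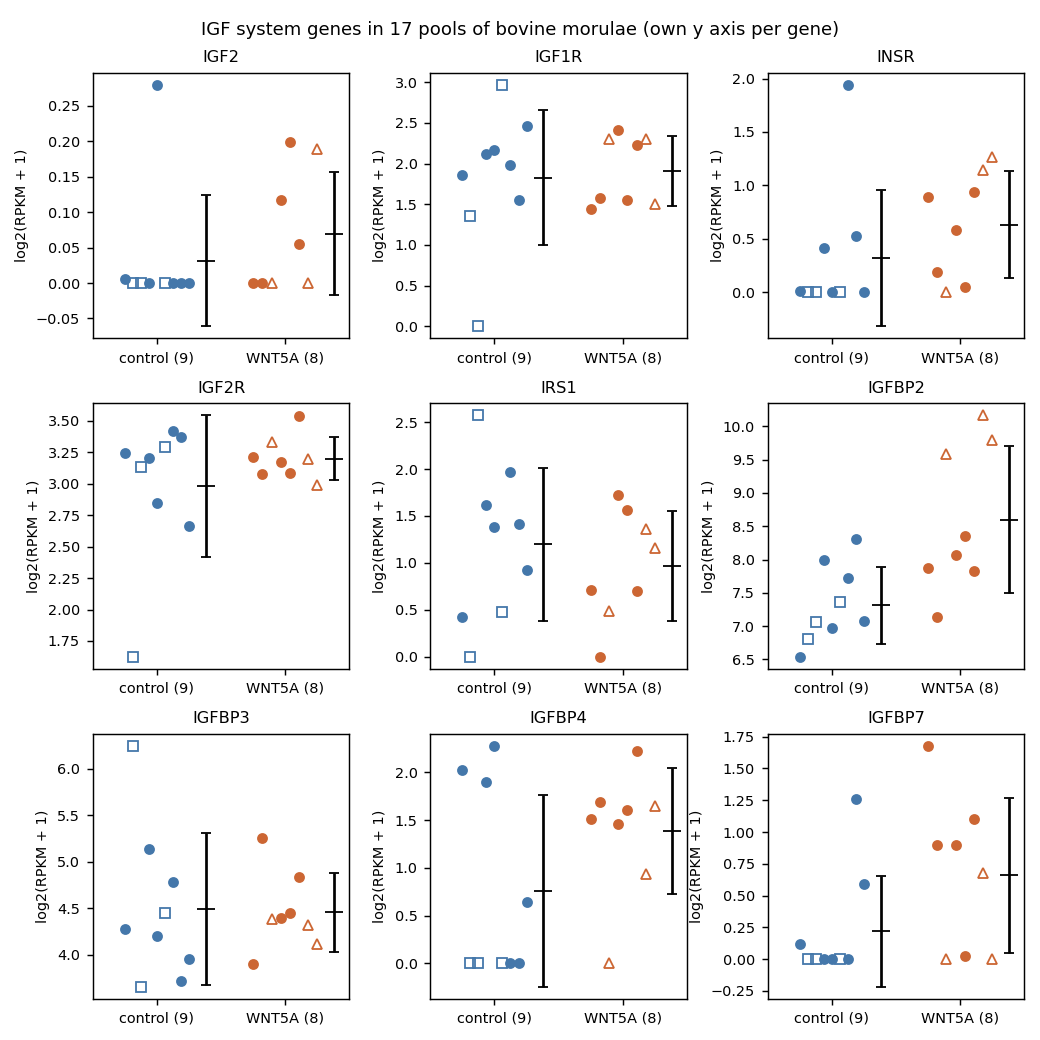
Levels of the 9 genes as log2(RPKM + 1) on the y axis, 1 panel per gene with its own scale, for 9 control (blue) and 8 WNT5A (orange) pools. Each point is a library, open squares are control libraries 2, 3 and 6, open triangles are WNT5A libraries 4, 12 and 14, and bars show the mean and SD. For IGFBP2 the 3 triangles lie above every other library, and the groups overlap in every panel.

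Of the 9 genes, 6 had at least 0.5 RPKM in at least 8 libraries and were tested with limma, fitted over all 12415 genes that met this filter. Of these 6, 4 had a fitted change above 0 (3 after quantile normalization), and none passed an adjusted p of 0.05, against 0.00805% of all tested genes, which is 1 gene. At an unadjusted p under 0.05 there was 1 of the 6, IGFBP2, against 7.35% of all tested genes. In the authors' deposited table, 1 of the 9 had an FDR under 0.05, again IGFBP2, against 1.01% of its genes. No member had groups that did not overlap, a pattern seen in 0.0161% of tested genes. The median fitted change over all tested genes was 0.11 on the log2(RPKM + 1) scale, which understates changes of low genes. This median was -0.013 after quantile normalization, when 48.4% of genes were above 0 in place of 62.3%. Fitted changes below are on the log2(RPKM + 1) scale, except those with a pseudocount of 0.1 or with voom weights. The pseudocount of 0.1 gives log2(RPKM + 0.1), and voom weights go with log2 recovered reads scaled to library size. Sizes of change in these settings cannot be compared directly with those of the main fit.

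The ligand IGF2, an imprinted growth factor of fetal and placental tissues in mammals, had reads in 2 of 9 control and 4 of 8 WNT5A pools. Control library 5 held 172 reads (0.213 RPKM) and control library 1 held 4 (0.00414 RPKM). The WNT5A libraries with reads were 7 (0.0841 RPKM), 10 (0.147), 11 (0.0385) and 14 (0.140). In the 11 libraries with no read, a count of 0 allows 0.00262 to 0.0136 RPKM (3 reads per library, counting error only). IGF2 reached 0.5 RPKM in none of the 17 libraries and did not enter the test. Without the filter its log2 change was 0.038 ± 0.064 (SE; limma adjusted p = 0.877).

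IGF1R, the signalling receptor of both ligands, ranged in controls from 0 to 6.80 RPKM with a median of 2.95. In WNT5A pools it ranged from 1.71 to 4.31 RPKM with a median of 2.82, inside the control range. Both control extremes were libraries with few genes detected: control library 3 had no IGF1R read, which allows 0.00445 RPKM, and control library 6 had 4179 reads. The means were 3.02 ± 1.92 RPKM for controls (SD, n = 9) and 2.91 ± 1.14 for WNT5A pools (SD, n = 8). Its fitted log2 change, opposite in sign to the difference of these means, was 0.084 ± 0.35 (SE; limma adjusted p = 0.954), with a 95% interval from -0.63 to 0.80. It was -0.14 without control library 3, -0.22 after quantile normalization and 1.03 on the recovered reads with limma's voom weights (limma adjusted p = 0.718).

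IGF2R, the clearance receptor of IGF2, was the steadiest of the receptors. It ranged from 2.09 to 9.70 RPKM in controls, with a median of 8.24, and from 6.96 to 10.6 in WNT5A pools, with a median of 8.10. Control library 2 was the lowest of all libraries, and 1 WNT5A pool (library 11) lay above every control. The means were 7.34 ± 2.43 RPKM (SD, n = 9) and 8.25 ± 1.15 (SD, n = 8). The residual SD of IGF2R was larger than in only 21.6% of tested genes, against 55.7% for IGF1R and 74.9% for IGFBP2. The fitted log2 change was 0.22 ± 0.26 (SE; limma adjusted p = 0.821; 95% interval -0.33 to 0.77), and 0.052 without control library 2.

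Within libraries, the level of IGF2R was 1.18 to 4.83 times that of IGF1R in the 8 controls with IGF1R reads, with a median of 2.12. In WNT5A pools the ratio was 1.86 to 4.84 with a median of 3.33, so the ranges overlapped. INSR was sparse, with reads in 4 of 9 controls and 7 of 8 WNT5A pools. In controls its median was 0 and its highest value 2.83 RPKM, in library 9, above every WNT5A pool. In WNT5A pools it ranged from 0 in library 4 to 1.40 RPKM in library 14, with a median of 0.681. INSR did not meet the filter, with at least 0.5 RPKM in 6 libraries, and without the filter its log2 change was 0.31 ± 0.26 (SE; limma adjusted p = 0.786).

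IRS1, the docking protein that links both kinases to PI3K, varied widely within each group. It ranged from 0 to 4.95 RPKM in controls with a median of 1.60, and from 0 to 2.29 in WNT5A pools with a median of 0.937. Control library 2 and WNT5A library 2 had no read, and control library 3, which had no IGF1R read, held the highest IRS1 level. The fitted log2 change was -0.23 ± 0.34 (SE; limma adjusted p = 0.857; 95% interval -0.95 to 0.48). It was -0.51 after quantile normalization, -0.55 with voom weights, -0.097 without WNT5A library 2 and -0.063 without control library 3.

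IGFBP2, a binding protein with affinity for both IGFs, was measured with 20904 to 91428 reads per library. In controls it ranged from 92.3 to 315 RPKM with a median of 135, and in WNT5A pools from 140 to 1145 RPKM with a median of 296. WNT5A libraries 4, 12 and 14 stood at 770, 1145 and 885 RPKM, above all other libraries. The other 5 WNT5A libraries had 233 (library 1), 140 (library 2), 266 (library 7), 325 (library 10) and 226 RPKM (library 11). Of these 5, library 10 lay above the highest control, library 10 of that group, and the other 4 lay inside the control range. Among the 17167 genes it ranked 422 to 1292 in RPKM in controls, 422 to 954 in those 5 pools and 44 to 100 in WNT5A libraries 4, 12 and 14. There it took 0.117% to 0.162% of reads, against 0.0140% to 0.0446% in controls.

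**Figure D2:**
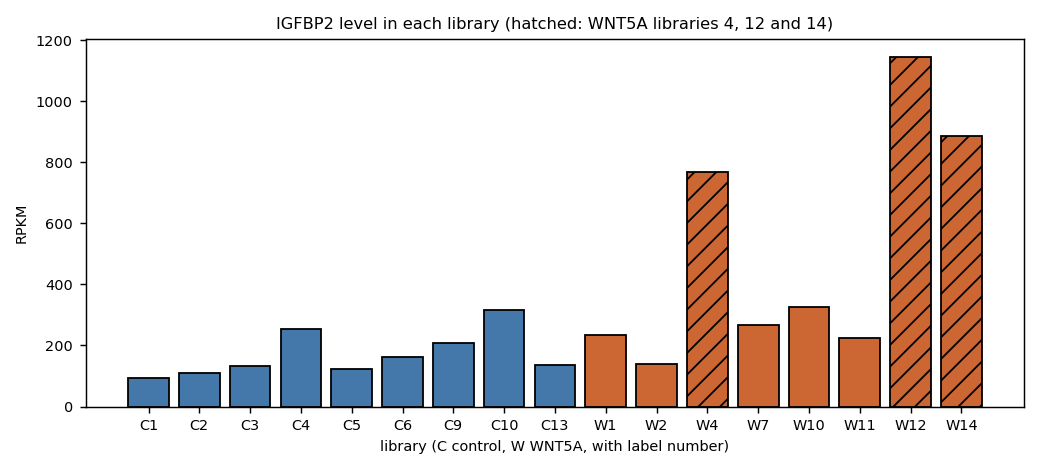
IGFBP2 in RPKM (y axis) in each library, with 9 controls (C, blue) and 8 WNT5A pools (W, orange) numbered as in the labels. The hatched bars of WNT5A libraries 4, 12 and 14 reach 770 to 1145 RPKM, and the other WNT5A bars lie between 140 and 325 RPKM.

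The means of IGFBP2 were 171 ± 73.8 RPKM for controls (SD, n = 9) and 499 ± 378 for WNT5A pools (SD, n = 8). The fitted log2 change was 1.28 ± 0.36 (SE; 95% interval 0.53 to 2.03; unadjusted p = 0.00179 and limma adjusted p = 0.673), the 24th smallest p of the tested genes. In the authors' deposited table IGFBP2 had a log2 fold change of 1.17 and an FDR of 0.0223. Without WNT5A libraries 4, 12 and 14 the fitted change was 0.53 ± 0.27 (SE; limma adjusted p = 0.992), with 238 ± 67.5 RPKM in the 5 treated pools left (SD, n = 5). Without control libraries 2, 3 and 6 it was 1.16, and without all 6 libraries 0.41 ± 0.29 (SE; limma unadjusted p = 0.179). WNT5A libraries 4, 12 and 14 differed from the rest also in depth and in ENSBTAG00000051364, an uncharacterised gene that took 3.51% to 5.64% of their reads and at most 0.00381% elsewhere. The part of these differences in the IGFBP2 level was not tested.

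IGFBP3, the main carrier of IGFs in blood, was the second most abundant member. It ranged from 11.6 to 75.1 RPKM in controls with a median of 18.4, and from 13.9 to 37.3 in WNT5A pools with a median of 19.97. Control library 2 held the highest level of all libraries, and WNT5A library 2 the highest of its group. In WNT5A libraries 4, 12 and 14, where IGFBP2 was highest, IGFBP3 was 16.3 to 19.9 RPKM, inside the range of the controls. The ratio of IGFBP2 to IGFBP3 was therefore 38.7 to 60.4 in these 3, against 3.74 to 16.7 in the other 5 WNT5A pools and 1.48 to 26.0 in controls. The fitted log2 change of IGFBP3 was -0.034 ± 0.30 (SE; limma adjusted p = 0.980; 95% interval -0.66 to 0.59), and 0.19 without control library 2.

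IGFBP4, which in other tissues mostly holds back IGF action, was either clearly present or nearly absent. It had no read in control libraries 2, 3, 9 and 10 and in WNT5A library 4, and 2 reads in control library 6, whereas the other 11 libraries had 0.566 to 3.86 RPKM. A count of 0 allows 0.00810 to 0.0365 RPKM in the 5 libraries without reads. The control median was 0.00662 RPKM with a range from 0 to 3.86, and the WNT5A median 1.95 RPKM with a range from 0 to 3.66. At least 0.5 RPKM was found in 4 of 9 controls and 7 of 8 WNT5A pools. The fitted log2 change was 0.62 ± 0.39 (SE; limma adjusted p = 0.721; 95% interval -0.19 to 1.43). It was 0.24 without control libraries 2, 3 and 6, 0.17 after quantile normalization, 0.94 without WNT5A libraries 4, 12 and 14, 1.82 with a pseudocount of 0.1 and 4.65 with voom weights (limma adjusted p = 0.519 to 0.992 over these settings).

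IGFBP7, a relative of the family with low affinity for IGFs that also binds insulin, had reads in 3 of 9 controls and 6 of 8 WNT5A pools. The controls with reads were libraries 1 (0.0873 RPKM), 10 (1.39) and 13 (0.509). WNT5A pools ranged from 0 in libraries 4 and 14 to 2.20 RPKM in library 1, with a median of 0.732. A count of 0 allows 0.0114 to 0.0521 RPKM in the 8 libraries without reads. IGFBP7 reached 0.5 RPKM in 7 libraries and did not enter the test. Without the filter its log2 change was 0.44 ± 0.24 (SE; limma adjusted p = 0.725).

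IGF2, INSR and IGFBP7 had no read in any of control libraries 2, 3 and 6. Among the other 6 controls IGF2 had reads in 2, INSR in 4 and IGFBP7 in 3. In the 5 WNT5A libraries of greater depth, INSR, IGFBP4 and IGFBP7 each had reads in 5 of 5 and IGF2 in 3. WNT5A library 4, which had the fewest reads of all, had none from IGF2, INSR, IGFBP4 or IGFBP7. WNT5A libraries 12 and 14, also of low depth, had reads of 8 of the 9 genes, and control libraries 2 and 3, of greater depth, had reads of 4. Over the whole table, reads fell on 13129 to 16589 genes in WNT5A libraries and on 10055 to 15430 in controls. The part of the number of genes detected in the difference between groups was not tested.

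**Figure D3:**
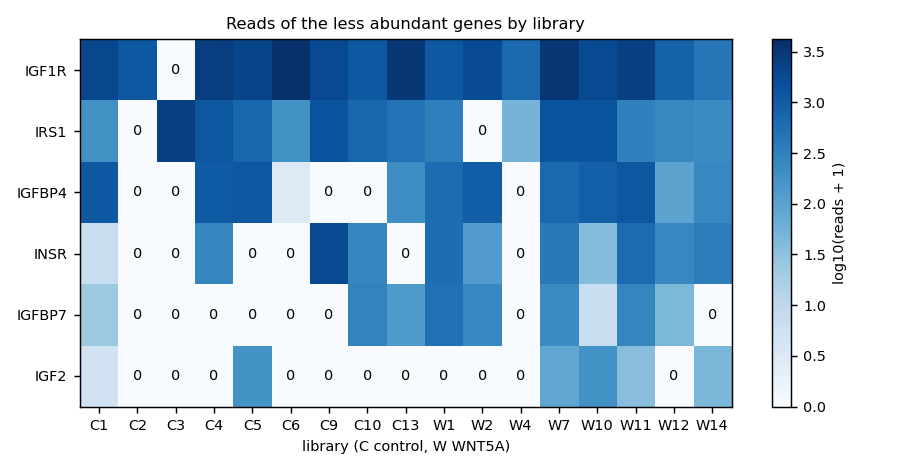
Recovered reads of the 6 less abundant genes, as colour on a log10(reads + 1) scale, in 9 control (C) and 8 WNT5A (W) libraries, with 0 written where a gene had no read. C2, C3 and W4 lack reads of at least 4 of the 6 genes, and C1, W7, W10 and W11 have reads of every one.

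**Figure D4:**
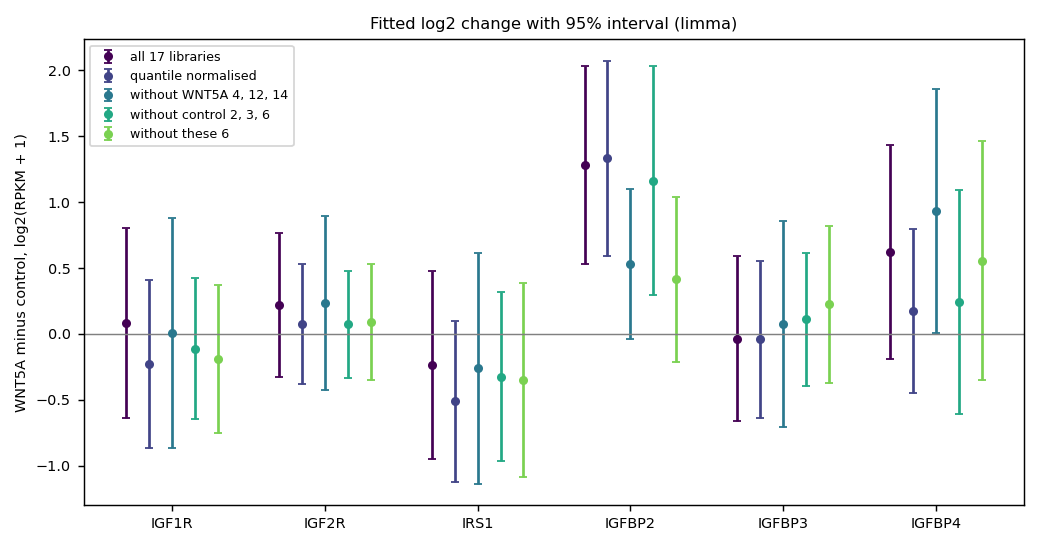
Fitted log2 change (WNT5A minus control, y axis) with its 95% interval for the 6 tested genes, with all 17 libraries, after quantile normalization and without the libraries named in the key. IGFBP2 falls from 1.28 to 0.53 without WNT5A libraries 4, 12 and 14, and the other 5 genes have intervals that include 0 with all libraries.

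The genes whose log2 levels followed each member most closely over the 17 libraries were read from the same table, as a description. Closest to IGFBP2 were SRSF1, a splicing factor gene (Pearson r = 0.957, Spearman rho = 0.912), ARHGDIA (r = 0.955, rho = 0.946), and the calpain protease gene CAPN1 (r = 0.940, rho = 0.863). Without WNT5A libraries 12 and 14, the 2 farthest from the IGFBP2 median, r was 0.910, 0.939 and 0.888. All 3 genes had higher means in WNT5A libraries 4, 12 and 14, compared with the remaining 5, at 122 against 42.2 RPKM for SRSF1, 152 against 83.4 for ARHGDIA and 67.9 against 8.20 for CAPN1. Without these 3 libraries r was 0.863, 0.909 and 0.778 (n = 14).

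Closest to IGF2R were SYNE3 (r = 0.932, rho = 0.821), NUP58 (r = 0.931, rho = 0.632) and ATP10A (r = 0.917, rho = 0.775), which had 0.686, 0.461 and 0.736 without control libraries 2 and 13. IGF1R was followed by TLN1 (r = 0.866, rho = 0.713), UBR4 (r = 0.846, rho = 0.755) and ZNF524 (r = 0.828, rho = 0.576). These had 0.675, 0.667 and 0.331 without control libraries 3 and 6. For each receptor the libraries left out were the 2 farthest from its median. This narrows the range, which by itself can lower r, so how far the likeness rested on them was not tested. IRS1 was followed by C23H6orf47 (r = 0.814, rho = 0.812) and LDHC (r = 0.784, rho = 0.745), with 0.739 and 0.710 without control library 3 and WNT5A library 2. Control library 2, also without an IRS1 read, was as far from the median as WNT5A library 2 and stayed in.

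Closest to IGFBP3 were BOLA-NC1 (r = 0.868, rho = 0.645), PTPRS (r = 0.838, rho = 0.664) and SGK3 (r = 0.822, rho = 0.632), with 0.601, 0.634 and 0.659 without control library 2 and WNT5A library 2. IGFBP4 was followed by HUNK (r = 0.901, rho = 0.869), ARSL (r = 0.894, rho = 0.754) and RUBCN (r = 0.889, rho = 0.843). These had 0.878, 0.881 and 0.875 without control library 10 and WNT5A library 4. These 2 were among 5 libraries without an IGFBP4 read, all equally far from its median, and the rest of the 5 stayed in. The values therefore cannot show whether the likeness rested on such libraries. The points share library depth and the number of genes detected, and the genes were the highest of all tested genes with a symbol. No p is given.

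The other genes of the pathway were read from lists grouped by role. Of 55 listed genes 54 had a row and 44 met the filter. Of these 44, none passed the adjusted threshold in limma, also with voom weights, and 3 had an unadjusted p under 0.05, against 7.35% of all tested genes. With voom weights there were 2, against 9.41% of all tested genes. Higher fitted values were found for 32 of the 44, with a median of 0.21, against 62.3% of all tested genes and their median of 0.11. After quantile normalization 27 were higher, with a median of 0.10, and without control libraries 2, 3 and 6 there were 24, with a median of 0.029. Of all tested genes, 48.4% were higher after quantile normalization, and 50.7% without these 3 controls, with a median of 0.0045.

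Among ligands, binding proteins and proteases outside the members, 4 of 6 tested genes were higher and 2 lower (3 higher after quantile normalization). IGFBP6, which prefers IGF2, had 6.61 ± 3.87 RPKM (SD, n = 9 controls) against 3.69 ± 1.18 with WNT5A (SD, n = 8), with a log2 change of -0.47 (limma adjusted p = 0.767). STC1, a stanniocalcin, had a log2 change of 0.43 (limma adjusted p = 0.772). IGFBP5, the gene next to IGFBP2 in the RefSeq order, had 2.30 ± 2.28 RPKM (SD, n = 9 controls) against 2.35 ± 1.14 with WNT5A (SD, n = 8), with a mean of 2.04 in WNT5A libraries 4, 12 and 14. IGFBP1, the gene next to IGFBP3, had reads in 2 of 17 libraries, both of them WNT5A pools. PAPPA, a protease that cuts IGFBP4, had reads in 2 WNT5A pools, with a group mean of 0.0335 RPKM, and in none of the controls.

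Of 10 tested adaptors and inhibitors close to the receptor, 6 were higher and 4 lower (6 higher after quantile normalization). SOCS3, a feedback inhibitor of cytokine and insulin signalling, had 5.16 ± 3.52 RPKM (SD, n = 9 controls) against 12.1 ± 8.42 with WNT5A (SD, n = 8), with a log2 change of 0.97 (limma adjusted p = 0.673). In WNT5A libraries 4, 12 and 14 its mean was 22.1 RPKM, against 6.17 for the remaining 5, and its change was 0.32 without these 3. PTPN1, a phosphatase that acts on the insulin receptor, had a log2 change of -0.30 (limma adjusted p = 0.686). IRS2 and IRS4 averaged at most 0.274 RPKM in either group, so that IRS1 had the highest mean of the insulin receptor substrates listed. GRB2, an adaptor that couples receptors to RAS, was abundant with 133 ± 22.6 RPKM (SD, n = 9 controls) against 130 ± 12.4 with WNT5A (SD, n = 8).

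Of 17 tested PI3K, AKT and mTOR genes 14 were higher and 3 lower (10 higher after quantile normalization). TSC2, which restrains mTOR, had 3.44 ± 2.19 RPKM (SD, n = 9 controls) against 6.27 ± 2.19 with WNT5A (SD, n = 8), with a log2 change of 0.84 (limma adjusted p = 0.673). In control libraries 2, 3 and 6 its mean was 1.66 RPKM, against 4.33 for the remaining controls, and its change was 0.48 without these 3. AKT1 had 188 ± 75.5 RPKM (SD, n = 9 controls) against 181 ± 57.4 with WNT5A (SD, n = 8), above AKT2 (6.81 and 7.75).

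All 4 tested FOXO and GSK3 genes were higher (3 after quantile normalization, with FOXO4 at -0.085), led by GSK3A (0.53) and FOXO4 (0.45), each with limma adjusted p = 0.726. In WNT5A libraries 4, 12 and 14 the mean of GSK3A was 44.6 RPKM, against 10.8 for the remaining 5 and 12.9 for controls, and its change was -0.21 without these 3. FOXO4 changed by 0.14 without these 3 WNT5A libraries, and by -0.14 without control libraries 2, 3 and 6 as well. Of the 3 IGF2 mRNA binding protein genes 2 were higher, also after quantile normalization, IGF2BP2 (0.49; limma adjusted p = 0.748) and IGF2BP3 (0.37; limma adjusted p = 0.764). Without control libraries 2, 3 and 6 these were 0.68 and 0.025. IGF2BP1 had 224 ± 60.0 RPKM (SD, n = 9 controls) against 199 ± 36.0 with WNT5A (SD, n = 8), far above the IGF2 level. Of 4 genes of mannose 6-phosphate sorting 2 were higher and 2 lower (3 higher after quantile normalization). M6PR, the smaller mannose 6-phosphate receptor, had -0.24 (limma adjusted p = 0.728) and GGA3, a Golgi adaptor, 0.20 (limma adjusted p = 0.842). Without WNT5A libraries 4, 12 and 14 these were -0.055 and -0.0065. The mean of M6PR was 89.8 RPKM for controls, above the 7.34 RPKM of IGF2R.

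**Figure D5:**
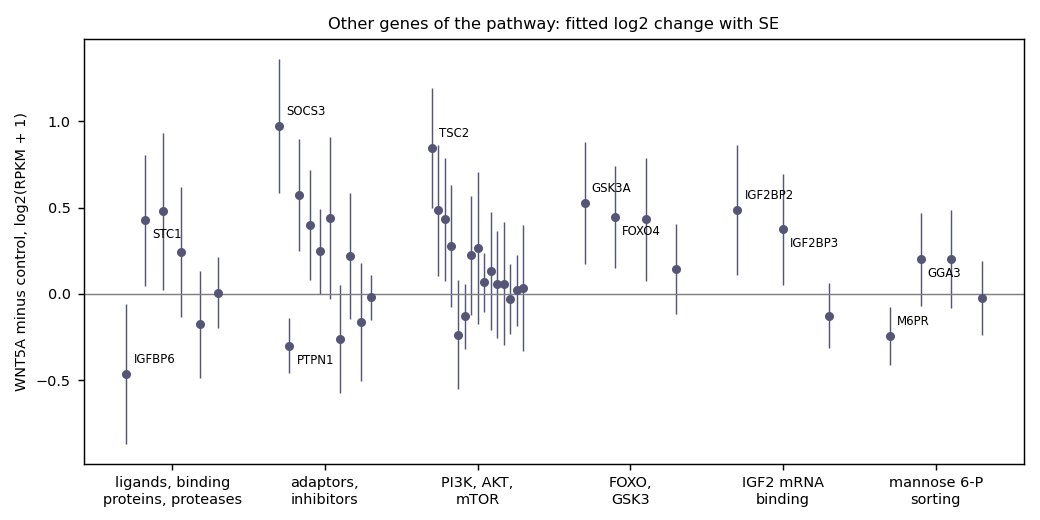
Fitted log2 change (WNT5A minus control, y axis) with its SE for 42 of the 44 tested genes of the pathway in 6 lists (x axis), ordered by p within each list, with those of the 2 smallest p in each list that are described here labelled. SOCS3 (0.97) and TSC2 (0.84) lie highest of the genes drawn, and none of the 42 passed the adjusted threshold.

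The summed level of each list of markers of other cells that a pool could hold was below the lowest IGFBP2 level, 92.3 RPKM. Oocyte genes came nearest, at up to 81.6 RPKM, and these markers were not low beside most of the other members. The highest summed level of each list below was above the mean of IGF2R, 7.77 RPKM, and of every less abundant member. Of 9 cumulus and granulosa genes 7 had a row, and their summed level was 1.53 to 18.1 RPKM in controls and 0.889 to 5.52 in WNT5A pools. These genes did not move one way: between WNT5A libraries 4, 12 and 14 and the 5 deeper WNT5A pools, means were 1.14 against 0.247 RPKM for CYP19A1, 0.295 against 0.0698 for FSHR and 0.492 against 0.187 for TNFAIP6. They were 0.554 against 1.91 RPKM for STAR, 0.0352 against 1.99 for AMH, 0.367 against 0.437 for FOXL2 and 0 against 0.413 for CYP11A1. In WNT5A libraries 4, 12 and 14 the sum was 0.889 to 5.15 RPKM, not above the 4.80 to 5.52 of the other 5. Oocyte genes (9 of 9 with a row) summed to 15.5 to 81.6 RPKM in controls and 20.8 to 57.0 in WNT5A pools. Blood and immune genes (4 of 6 with a row) summed to 7.71 to 33.7 and 6.97 to 14.3 RPKM. Fibroblast genes (4 of 5) summed to 0 to 15.5 and 2.53 to 4.92 RPKM, and TNP1, the 1 sperm gene of 3 with a row, was at 0 to 10.6 and 0 to 2.89 RPKM. The part of these cells in the levels of the IGF genes was not tested.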

How the data were processed

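Stranded mRNA libraries from 17 pools were analysed. FastQC, HISAT2, featureCounts and edgeR on ARS-UCD1.2 are named in the submitters' processing notes. Versions, settings and annotation release: not given in the sources used here. Deposited by the authors were RPKM per gene and library, with a log2 fold change, log2 CPM, likelihood ratio score, p-value and FDR, per the file headers.

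Multiplied by gene length, 100% of RPKM values were whole multiples (within 0.001) of a step particular to each library, and these were taken as reads. As no molecular identifiers are named, reads may not be independent molecules, and limits from counts cover counting error only. Because RPKM are not counts, limma 3.58.1 in R 4.3.3 (trend and robust, two-sided, Benjamini-Hochberg, threshold 0.05) was run on log2(RPKM + 1), pseudocount 1, for genes reaching 0.5 RPKM in 8 or more libraries, and was tested on simulated data. Alternatives were a pseudocount of 0.1, no filter, quantile normalization, library totals, voom weights, a replicate block and left-out libraries.

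Members and lists were chosen with earlier results of these data known. Named were all members, the 2 genes with the smallest p per list, the 3 nearest genes per tested member, and, after their values were seen, some of the other list genes (the other IGFBP, IRS, AKT and IGF2BP genes, PAPPA, GRB2). Some genes that this rule names are not reported here. RefSeq gene order (ARS-UCD2.0) served for neighbours only. Figures were drawn with matplotlib 3.10.9.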

Additional observations from a re-analysis of the deposited data

Results flagged for a closer look

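In 4 of 18 groups examined (9 genes in 2 groups), 1 control library stood apart from the others by more than Dixon's 95% critical value for 9 libraries. Chance flags about 1 in 20 such groups where values are normally distributed. The criterion was applied to RPKM, which are often at 0 here, so that this rate may not hold. No WNT5A group had such a library. IGFBP3 was 75.1 RPKM in control library 2, with 34.2 as the next highest. INSR was 2.83 RPKM in control library 9, with 0.442 next. IGFBP7 was 1.39 RPKM in control library 10, with 0.509 next. IGF2 was 0.213 RPKM in control library 5, with 0.00414 next. For IGF2, INSR and IGFBP7 most controls were at or near 0, so that 1 library with reads met the criterion.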

How the results depend on the processing

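None of the 6 tested members passed the adjusted threshold under any of the 26 alternatives. Between 0 and 2 of the 6 had an unadjusted p under 0.05 in limma, against 314 to 1303 of all genes fitted. The 2 were IGFBP2 and IGFBP4, with voom weights, without control library 5 and without WNT5A library 4. In these settings 1168, 914 and 651 of all 12415 tested genes were under 0.05. Without WNT5A libraries 4, 12 and 14 the 1 member under 0.05 was IGFBP4 (limma unadjusted p = 0.0477), with 341 of all tested genes. IGFBP2 was not under 0.05 there (limma unadjusted p = 0.0657). IGF2, INSR and IGFBP7 were fitted with no filter only. Over all genes, 1 gene passed, and 0 passed with no filter, quantile normalization, voom weights, the replicate block, or without WNT5A libraries 4, 12 and 14, control libraries 2, 3 and 6 or all 6. With 1 library left out the counts were 0 to 2 (2 without control library 5, otherwise 0). The cause was not tested. IGFBP2 (0.41 to 1.49), IGF2R, IGFBP4 and IRS1 kept their direction in 26 of 26. IGF1R reversed to -0.22 with quantile normalization, -0.11 without control libraries 2, 3 and 6, -0.19 without all 6 and -0.0076 with the replicate block, and was -0.14 to 0.23 with 1 library left out. IGFBP3 reversed to 0.034 with voom weights, 0.077 without the 3 WNT5A libraries, 0.11 without the 3 controls and 0.22 without all 6, and was -0.15 to 0.19 with 1 library left out. Numbers 1, 2, 4 and 10 occur in both groups, and deviations of same-numbered libraries correlated at 0.216, 0.0571, 0.0217 and 0.109. The labels name no pairs and the main fit used none. These correlations cannot decide whether same-numbered pools were handled together. With the number as a block, changes rest only on the libraries of these 4 numbers, and WNT5A libraries 12 and 14 do not inform them. IGFBP2 then had 0.82, and the other values of this setting given above have the same limit. Of the 4 numbers, 2 correlated best with their own. For a gene of 1 kb a count of 0 allows 0.0576 to 0.0841 RPKM in WNT5A libraries 4, 12 and 14, and at most 0.0237 elsewhere. The part of depth in the members with few reads was not tested.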
